A study of Mus musculus with 3 samples.

Results

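The cells described here are mouse testis germ cells in which RNA of Ssxb1, Ssxb2 and Gm6588 stood out above 11 other sets of marker genes. The natural log values of each of 12 gene trios were averaged in every cell and turned into z-scores over all cells, and a cell was kept when the trio of Ssxb1, Ssxb2 and Gm6588, called trio D, scored highest. The 416 of 5023 cells chosen by these values are called Ssxb-high cells. Because the rule reads the expression values of the same cells, what sets them apart from other cells is a description, with no test.

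Male germ cells pass from the long prophase of meiosis through both divisions to haploid round spermatids, which then elongate and pack their DNA with protamines. Most genes of the X and Y chromosomes are silenced in pachytene spermatocytes, a state called meiotic sex chromosome inactivation, and some are transcribed again after meiosis. The Ssxb genes are an X-linked mouse family related to the human SSX (synovial sarcoma, X breakpoint) genes, which encode nuclear proteins found mainly in testis and in some tumours. Gm6588 is a predicted protein-coding gene.

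The libraries came from ICR mice whose testes were microinjected at postnatal day 21 with AAV9, a viral vector, carrying a hairpin and red fluorescent protein (RFP). A testis on one side received the control hairpin (AAV9-shCtrl-RFP) and the contralateral testis a hairpin (AAV9-shRNA-RFP) against Gm4665, an antisense transcript. After removal of somatic cells, RFP-positive germ cells of 3 mice per condition were sorted. The 3 10x Genomics 3' libraries are shCtrl (control), Gm4665-shRNA1 (hairpin 1) and Gm4665-shRNA2 (hairpin 2), 1 per condition. All groups carried AAV9 and RFP, and the sources used here do not say whether the mice of a condition were pooled. With 1 library per condition, differences between conditions have no replicate check and no p-value is given. Sets of 3 values follow the order control, hairpin 1, hairpin 2, called library order. Every interval is an exact 95% interval (Poisson for levels, Clopper-Pearson for shares) that covers counting error only.

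In the control library 61 of 1418 cells were Ssxb-high (4.30%, 3.31 to 5.49). Hairpin 1 had 195 of 1732 (11.3%, 9.81 to 12.8) and hairpin 2 had 160 of 1873 (8.54%, 7.32 to 9.90). The share was lowest in the control, and the same held for the cells led by Aurka, Ccna1 and Dnaic2 (trio C), which made up 5.36%, 9.53% and 9.77%. It also held for those led by Cd27, Zp3r and Gm9758 (2.82%, 7.85% and 5.07%) and by Stra8, Crabp1 and Dmrt1 (3.10%, 7.56% and 8.65%). Cells led by Cd52, Mzb1 and Lyz2, which are leukocyte-like, had the lowest share in the control too (1.41%, 5.43% and 9.66%). In the remaining trios a hairpin library was lowest. These are shares of sorted cells, which the sort can set. The Ssxb-high cells held 2382917, 6543783 and 4756215 UMIs (unique molecular identifiers, the counted RNA molecules) in the control, hairpin 1 and hairpin 2.

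The libraries had 18 cell barcodes in common, 4 Ssxb-high cells carried one of them, and 0 were shared between Ssxb-high cells of different libraries. Doublets were not called and no cell was removed. Markers of somatic cells were present at low levels in the Ssxb-high cells, highest with hairpin 2 for leukocytes and for myoid and endothelial cells. The 11 leukocyte genes summed to 13.01, 24.3 and 98.2 CPM (counts per 1000000 UMIs) in library order, and the 7 myoid and endothelial genes to 3.36, 3.21 and 25.2 CPM. The 11 Sertoli cell genes summed to 17.7 to 39.0 CPM over the libraries, 5 Leydig cell genes to 1.26 to 1.68 CPM and 5 red blood cell genes to 0.153 to 1.05 CPM. In hairpin 2, 3 Ssxb-high cells held all 371 UMIs of Mgp and 264 of the 281 of Igfbp7, both genes known from somatic cells.

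Among the 416 cells, 288 held UMIs of all 3 trio genes, 114 of 2 and 14 of 1, with a median of 10 UMIs of the trio per cell. The median z-score of trio D was 2.53 and the lowest 0.322. The 18 cells that led the next trio by under 0.1 had a median z-score of 1.74. The 33 cells in which trio D came second by under 0.1 had 1.57, and 15 of them belonged to trio C. No gap in scores separates the cells just inside the set from those just outside.

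Ssxb1 lies on the X chromosome at chrX:8413305-8422157 on the plus strand and Ssxb2 at chrX:8454345-8461726 on the minus strand (mm10, GENCODE vM21), both protein-coding. Gm6588 is autosomal, with a single exon at chr5:112449426-112451738 on the plus strand. The 250 bases upstream of the RefSeq start of each gene (GRCm38.p6) are printed 5′ to 3′ because the 3 genes were highest in the same cells. The windows of Ssxb1, Ssxb2, their neighbour Ssxb3 and Gm6588 are chrX:8413055-8413304 (plus strand), chrX:8461727-8461976 (minus), chrX:8591817-8592066 (minus) and chr5:112449176-112449425 (plus). Capitals mark the 39-base run that the 3 Ssxb windows have in common.
Ssxb1: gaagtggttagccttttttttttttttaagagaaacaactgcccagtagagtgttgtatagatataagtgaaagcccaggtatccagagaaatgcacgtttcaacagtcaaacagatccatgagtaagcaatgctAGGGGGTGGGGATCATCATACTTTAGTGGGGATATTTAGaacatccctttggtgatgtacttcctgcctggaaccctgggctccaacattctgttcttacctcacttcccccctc
Ssxb2: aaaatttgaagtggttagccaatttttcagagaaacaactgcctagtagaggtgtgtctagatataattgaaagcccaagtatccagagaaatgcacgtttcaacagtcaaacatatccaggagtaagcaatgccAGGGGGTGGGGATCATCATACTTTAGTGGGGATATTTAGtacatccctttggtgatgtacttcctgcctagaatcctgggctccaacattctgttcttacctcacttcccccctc
Ssxb3: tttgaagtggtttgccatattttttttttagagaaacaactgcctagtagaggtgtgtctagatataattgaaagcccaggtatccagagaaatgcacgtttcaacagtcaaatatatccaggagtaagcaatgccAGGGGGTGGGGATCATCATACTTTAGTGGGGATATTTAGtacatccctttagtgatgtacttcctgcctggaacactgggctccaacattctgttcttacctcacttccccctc
Gm6588: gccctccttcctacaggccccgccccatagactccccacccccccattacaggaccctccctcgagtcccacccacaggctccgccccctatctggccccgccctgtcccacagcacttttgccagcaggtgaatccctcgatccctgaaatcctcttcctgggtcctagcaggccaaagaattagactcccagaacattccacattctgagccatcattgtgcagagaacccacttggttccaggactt
The 3 Ssxb windows were 94.6% to 96.7% identical where aligned. The run in capitals spans 115 to 77 bases upstream of the start in Ssxb1 and Ssxb2, and it is not in the Gm6588 window.

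The windows were searched on both strands for 7 short motifs. Each Ssxb window has 2 matches to CNGTTG, letters of the MYB motif, which 29.3% of 32851 mouse windows of the same length hold, and the Gm6588 window has none. The Ssxb2 window has 1 match to CCAAT, held by 33.8% of windows. None of the 4 windows has CNGTTA (19.8% of windows), TGACGTCA (1.5%), its first letters TGACG (17.8%), GTTGCC (10.4%) or TATAAA (12.4%). A match describes letters in the window and not a binding site.

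The genes of the rule stood at similar levels in the 3 libraries, which the choice of the cells by these genes favours. Ssxb1 was at 98.2 CPM in control cells (interval 86.0 to 112), and at 86.3 and 100.3 CPM in those of hairpins 1 and 2. It was at 29.8, 41.9 and 34.4 CPM in C cells and at 20.05, 21.2 and 15.1 CPM in the cells led by Cd27, Zp3r and Gm9758 (trio E). Ssxb2 was at 103, 96.4 and 121 CPM, against 33.0, 44.0 and 39.2 CPM in C cells and 12.9, 24.5 and 11.96 CPM in E cells. The libraries of the Ssxb-high set were above those of C and E cells without overlap, as the rule requires.

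Gm6588 was at 132, 136 and 117 CPM and was spread differently on either side of the set. In E cells it was at 47.3, 54.4 and 39.1 CPM, above its C cells (24.7, 31.8 and 26.0 CPM), whereas Ssxb1 and Ssxb2 were lower in E than in C cells. In the spermatid set led by Spam1, Plin2 and Asb15 (trio F) Gm6588 was still at 34.6, 42.8 and 31.5 CPM, and Ssxb1 was at 6.23, 15.1 and 7.72 CPM.

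**Figure D1:**
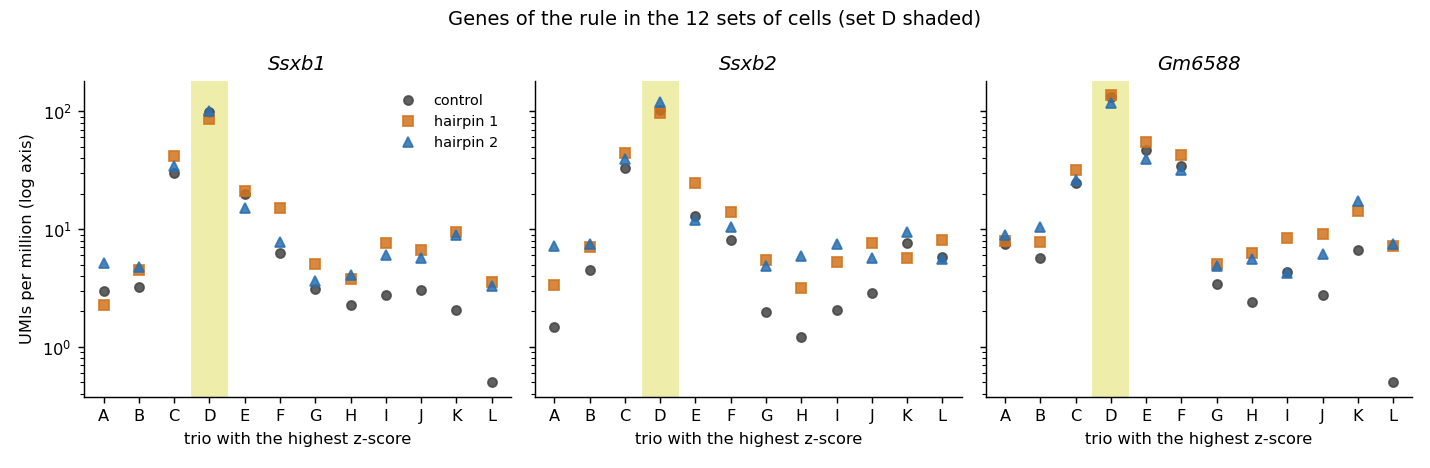
CPM of Ssxb1, Ssxb2 and Gm6588 (log axis) in the cells of each of the 12 trios A to L, with 1 point per library. The 3 points of trio D (shaded) are the highest of each panel, from 86.3 to 136 CPM, which follows from the rule.

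Other Ssx genes were at lower levels and did not follow 1 pattern. Ssxb6 was at 31.1, 14.1 and 13.2 CPM in Ssxb-high cells of the control, hairpin 1 and hairpin 2, against 7.98, 8.27 and 6.45 CPM in C cells. Ssxb3 was at 22.7, 24.6 and 30.5 CPM, against 16.5, 22.4 and 22.0 CPM in C cells. Ssxb5 was lower than in C cells, at 4.20, 3.36 and 3.99 CPM against 9.31, 9.21 and 6.97 CPM. The ends of these transcripts are alike: the last 500 bases of Ssxb1 match Ssxb10 at 96.0% identity, and those of Ssxb2 match Ssxb9 at 96.3% over 296 bases. Levels of single family members are therefore uncertain, since reads of such pairs can be split or dropped.

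For most genes the Ssxb-high cells lay between the C cells, with genes of late spermatocytes, and the E cells, with genes of round spermatids. Of 4042 genes compared, the mean CPM over the 3 libraries was between C and E cells for 3096 (76.6%), above both for 703 (17.4%) and below both for 243 (6.01%). The trio with the second highest score was C in 234 cells (56.3%), E in 68, F in 81 and another trio in 33. C was second in 59.0%, 55.4% and 56.3% of the cells by library. These levels match a position around the meiotic divisions, but no measure here shows whether a cell was dividing. The control held only 40 E cells, so its E values rest on few cells.

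Genes of the division machinery were mostly lower than in C cells and higher than in E cells. The list of kinases, cyclins and their partners summed to 3509, 3720 and 3586 CPM, against 5143, 5154 and 5121 CPM in C cells and 2403, 2086 and 2246 CPM in E cells. Of the 18 members compared with C cells, 1 was at least 2-fold higher and 4 were at least 2-fold lower, beside 15.2% higher and 5.06% lower of all 3677 genes compared. A gene was compared when either set had at least 50 CPM, so one that is low in the other set entered because it differed, and such counts are descriptions. Of 12 compared with E cells, 3 were at least 2-fold higher and 0 lower, beside 4.7% and 12.4% of 3641 genes. Aurka and Ccna1, genes of trio C, are among these 3, and Aurka is also among the 4 lower than in C cells. The rule reads their values, so it bears on both counts.

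Aurka, the spindle-pole kinase that is itself a marker of trio C, was at 154, 162 and 164 CPM against 558, 473 and 501 CPM in C cells and 50.1, 91.5 and 74.9 CPM in E cells. Cdk1, the kinase that drives entry into division, was at 29.8, 27.2 and 28.2 CPM against 125, 87.4 and 99.4 CPM in C cells. Its cyclin partners differed less from C cells. Ccnb1 (cyclin B1) was at 235, 253 and 244 CPM against 317, 331 and 324 CPM, and Ccnb2 (cyclin B2) at 433, 418 and 411 CPM against 441, 454 and 452 CPM. Ccna1, the germ cell cyclin A1, was at 407, 331 and 360 CPM, below C cells (608, 530 and 560 CPM) and above E cells (182, 105 and 111 CPM). For these 5 genes the libraries of Ssxb-high and C cells did not overlap.

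Bub1, a kinase of the spindle checkpoint, was the member that was at least 2-fold higher than in C cells. In library order it was at 159 (interval 144 to 176), 134 (125 to 143) and 115 CPM (105 to 125), against 57.0, 60.5 and 55.6 CPM in C cells and 88.8, 68.9 and 56.6 CPM in E cells. On the log2 scale its mean was 1.22 above C cells and 0.92 above E cells, and no library of Ssxb-high cells overlapped those of C or E cells. Bub1b, which encodes the checkpoint protein BubR1, differed in the other direction, at 17.2, 15.9 and 13.9 CPM against 38.1, 31.8 and 36.6 CPM in C cells.

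The list of kinetochore, spindle and anaphase genes summed to 3794, 3888 and 3719 CPM, against 5527, 5173 and 5252 CPM in C cells and 2791, 2475 and 2519 CPM in E cells. Of 28 members compared with C cells, 1 was at least 2-fold higher and 5 lower, beside 15.2% and 5.06% of all genes. Pttg1 (securin, which holds back separase) was at 184, 155 and 174 CPM against 417, 283 and 351 CPM in C cells. Cdc20, an activator of the anaphase-promoting complex, was at 168, 180 and 193 CPM against 362, 315 and 350 CPM. Both were above E cells, where Pttg1 was at 88.8, 84.2 and 97.3 CPM and Cdc20 at 120, 70.9 and 106 CPM.

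Genes of the early round spermatid were higher than in C cells. Of 23 members compared, 15 were higher by 2-fold or more and 0 were lower by as much, beside 15.2% and 5.06% of all genes. The median log2 difference was 1.21, beside -0.11 over all genes. Beside E cells 0 of 25 were at least 2-fold higher and 7 were lower, where all genes gave 4.7% and 12.4%. Among the 7 are Cd27, Zp3r and Gm9758, whose values chose the E cells, so the rule sets part of this count. Their mean levels were 30.6, 169 and 27.5 CPM in the set and 104, 514 and 70.7 CPM in E cells. Spaca1, an acrosome membrane protein, was at 505, 478 and 486 CPM, against 145, 211 and 190 CPM in C cells and 778, 967 and 883 CPM in E cells. Acrv1, an acrosome matrix protein, was at 309, 329 and 306 CPM, against 121, 161 and 137 CPM in C cells and 620, 837 and 643 CPM in E cells. Tssk1, a testis-specific kinase, was at 651, 675 and 647 CPM, against 227, 316 and 264 CPM in C cells and 679, 582 and 551 CPM in E cells. Spaca1 and Acrv1 lay between both sets without overlap, whereas Tssk1 overlapped E cells.

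Regulators of the spermatid programme did not differ from C cells in 1 direction. Of 13 members compared, 3 were at least 2-fold higher and 0 lower, close to the 15.2% and 5.06% of all genes, so the count says nothing particular about them. Sox5, a transcription factor with a form specific to spermatids, was at 261, 293 and 318 CPM against 46.6, 76.9 and 86.8 CPM in C cells. Crem, the cAMP-responsive activator of spermatid genes, was at 637, 633 and 637 CPM against 411, 457 and 423 CPM. Tbpl1, a relative of the TATA-binding protein needed in spermatids, was lower, at 1175.5, 1119 and 1189 CPM against 1469, 1398 and 1501 CPM. The end of its transcript overlaps a sequence of Slc2a12 over 407 bases, so its reads are uncertain.

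Synapsis genes, which act in prophase, were also divided. Syce2, a central element protein of the synaptonemal complex, was at 236, 233 and 225 CPM, against 112, 101 and 124 CPM in C cells and 440, 386 and 503 CPM in E cells. Sycp1, the transverse filament protein, was at 114, 98.3 and 89.4 CPM against 33.8, 52.6 and 43.2 CPM in C cells. Sycp3, of the chromosome axis, was lower, at 57.9, 83.9 and 80.5 CPM against 171, 169 and 178 CPM. These 3 of the 10 members compared were at least 2-fold from C cells, 2 higher and 1 lower. All genes gave 15.2% higher and 5.06% lower, so the count says nothing particular about so short a list. The list summed to 1756, 1930 and 1831 CPM in Ssxb-high cells and 1737, 1811 and 1822 CPM in C cells.

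Smaller lists were too short for their counts to be read against the 15.2% higher and 5.06% lower of all genes compared with C cells. Among 14 pachytene genes 1 was higher and 3 were lower, and among 7 autosomal copies of X genes, which stand in for their silenced parents, 0 passed in a direction. Of the compared members, 1 of 2 XY body genes, 1 of 4 apoptosis genes, 1 of 4 stress genes and 1 of 10 piRNA genes were lower, and 0 were higher. Of 5 markers of late spermatocytes 2 were lower and 0 higher, and all 5 of round spermatids were higher. The 2 lower markers are Aurka and Dnaic2, whose values chose the C cells, so the rule favours this outcome. Both are also among the lower pachytene genes. The round spermatid markers include genes of trios E and F. Of 2 compared markers of leptotene to zygotene cells, 1 was higher and 1 lower, and the 6 compared of elongating spermatids were within 2-fold. Spermatogonia markers summed to 14.5 to 25.4 CPM over the libraries.

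**Figure D2:**
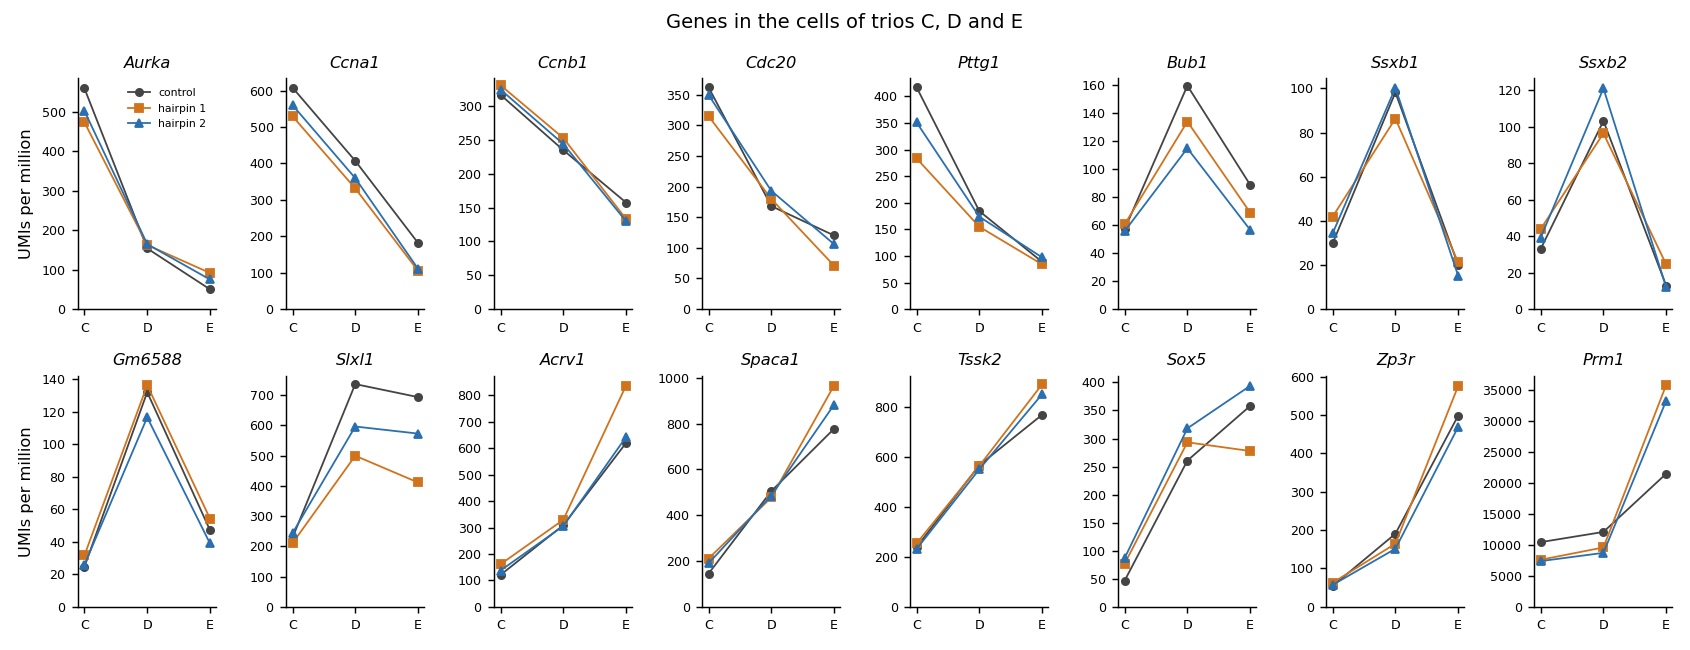
CPM of 16 genes in the cells of trios C, D (Ssxb-high) and E, with 1 line per library. Aurka, Ccna1, Ccnb1, Cdc20 and Pttg1 step down from C to E, and Acrv1, Spaca1, Tssk2 and Zp3r step up. Of the sets drawn, D is highest in every library for the 3 genes of the rule, Bub1 and Slxl1. In F cells, which are not drawn, Slxl1 was higher than in D.

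RNA of the sex chromosomes took a larger share of UMIs in Ssxb-high cells than in C cells. Without the Ssx genes, X-linked genes gave 1.02% (1.003 to 1.03), 0.782% (0.776 to 0.789) and 0.971% (0.962 to 0.980) of UMIs in library order. In C cells the shares were 0.432%, 0.409% and 0.468%, and in E cells 1.45%, 1.25% and 1.40%. The share was thus 2.35, 1.91 and 2.07 times that of C cells and 0.698, 0.626 and 0.693 times that of E cells. Y-linked genes gave 0.0757%, 0.0504% and 0.0645% against 0.0193%, 0.0198% and 0.0204% in C cells. In each library the intervals of Ssxb-high and C cells did not overlap on either chromosome.

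Many X-linked genes contributed. Of 42 outside the Ssx family, 32 (76.2%) were at least 2-fold higher than in C cells, beside 15.2% of all genes, and 40 were higher in all 3 libraries. Of these 42, 24 were under 50 CPM in C cells and entered only through their level in Ssxb-high cells, among them the 3 genes named next. Of the other 18, 10 were at least 2-fold higher. Samt2, a testis gene of a small X-linked family, was at 63.4, 46.9 and 61.0 CPM against 11.98, 15.8 and 17.3 CPM. Fthl17a, a ferritin-like gene, was at 89.8, 69.2 and 79.9 CPM against 21.6, 22.0 and 26.5 CPM. Cylc1, which encodes a cytoskeletal protein of the sperm head, was at 106, 94.4 and 110 CPM against 30.1, 34.4 and 36.4 CPM. Of the 42 genes, only Gm14698 was lower in all 3 libraries, at 54.6, 53.0 and 38.9 CPM against 96.9, 82.9 and 82.5 CPM.

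Slxl1, a gene of a multicopy X-linked family with near-identical copies, was at 736, 499 and 596 CPM against 229, 210 and 243 CPM in C cells. In F cells Slxl1 was higher than in the set, at 948, 675 and 813 CPM. Of 10 members of the list of X-linked families compared with C cells, 9 were at least 2-fold higher, but the list includes the genes of the rule, among them Gm6588, which the annotation places on chromosome 5. On the Y chromosome, Eif2s3y, a subunit of a translation initiation factor, was at 71.3, 56.8 and 81.6 CPM against 23.7, 31.6 and 28.6 CPM. Beside E cells, 0 of 66 X-linked genes were at least 2-fold higher and 18 were lower, where all genes gave 4.7% and 12.4%.

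The X share also varied among the Ssxb-high cells. In cells whose second trio was C it was 0.879%, 0.700% and 0.864%. In those whose second trio was E it was 1.34%, 0.908% and 1.14%, from 7, 34 and 27 cells, and the order was the same in each library. Aurka differed in the other direction, at 201, 208 and 224 CPM in cells with C second and 86.8, 84.7 and 67.0 CPM in cells with E second, which the use of Aurka in the second trio sets.

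**Figure D3:**
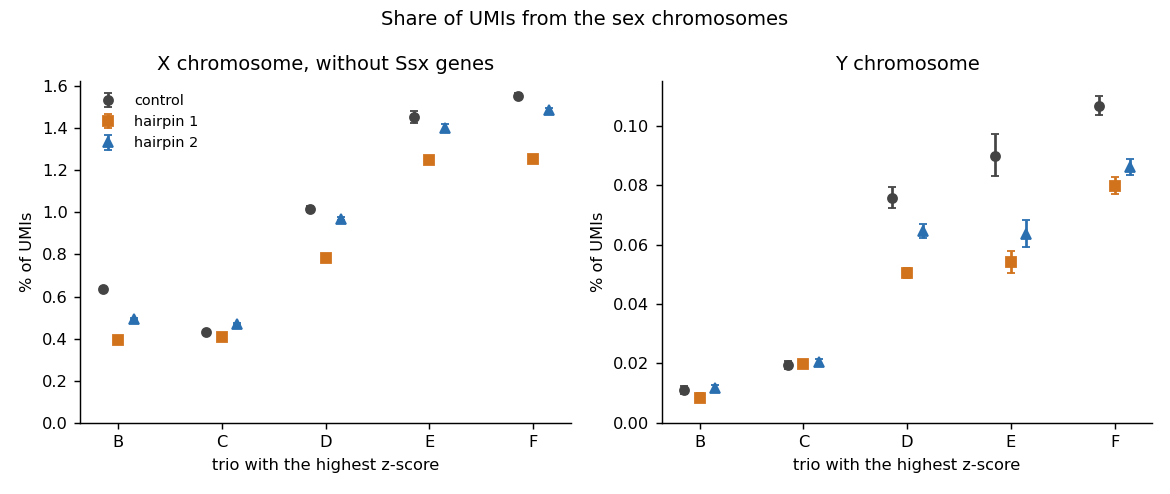
Percent of UMIs from X-linked genes (left, without Ssx genes) and Y-linked genes (right) in the cells of trios B to F, with 1 point per library and 95% counting intervals. Ssxb-high cells (D) lie between 0.782% and 1.02% on the X chromosome, above C (0.409% to 0.468%) and below E (1.25% to 1.45%).

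Chromosome 14 genes were frequent among those that stood highest above both neighbouring sets. Of the 15 genes ranked highest above both C and E cells, 7 lie on chromosome 14, which holds 3.62% of the 3256 genes at that level. Near-identical copies are annotated for 6 of the 7, and Gm10376 is the closest match of 1700001F09Rik, BC061237 and Gm3573. The 7 are therefore not separate counts. Over all compared genes of chromosome 14, 16.7% were at least 2-fold above C cells, beside 15.2% of all genes. Against E cells it was 6.72% beside 4.7%. The 15 include the 3 genes of the rule. All 15 were above both sets in each of the 3 libraries, which the ranking itself favours. Gm5458 was at 248, 230 and 215 CPM, against 88.9, 131 and 113 CPM in C cells and 107, 98.8 and 109 CPM in E cells. Gm10338 was at 242, 226 and 128 CPM against 76.9, 134 and 56.7 CPM in C cells. Gm5800 was at 139, 156 and 184 CPM against 44.4, 85.1 and 77.9 CPM. Reads cannot be divided with certainty between near-identical copies, so levels of single members are uncertain.

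Some members of the chromosome 14 group differed between libraries. BC061237 was at 2.94 and 0.764 CPM in control and hairpin 1 cells (7 and 5 UMIs) but at 203 CPM in hairpin 2 cells. The same split appeared in C cells, at 0.798, 0.564 and 96.4 CPM. 1700001F09Rik, with near-identical copies, was at 127, 105 and 328 CPM. The place of BC061237 among the 15 genes thus rests on the hairpin 2 library.

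Other genes of this rank lie elsewhere. 1700007K13Rik was at 339, 341 and 330 CPM, against 99.5, 166 and 132 CPM in C cells and 209, 166 and 179 CPM in E cells. Tmem243, a transmembrane protein gene, was at 168, 181 and 195 CPM, against 59.6, 94.1 and 91.5 CPM in C cells and 88.8, 101 and 84.5 CPM in E cells. Rsbn1l and 4930433I11Rik were at lower levels, from 72.6 to 88.6 CPM in the Ssxb-high cells of the 3 libraries.

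Mitochondrial genes were frequent among those lower than in both neighbours. Of the 10 genes ranked lowest, 7 were mitochondrial. Of 10 mitochondrial genes compared with C cells, 8 were at least 2-fold lower, beside 5.06% of all genes. The mean mitochondrial share was 0.595%, 0.797% and 0.680%, against 1.36%, 2.14% and 1.62% in C cells and 0.548%, 1.28% and 1.52% in E cells. In the control the share was not below that of E cells. In F cells the share was lower than in the set in each library, at 0.320%, 0.246% and 0.213%. The share depended on depth, and 230 of 271 E cells had under 15000 UMIs. Among such shallow cells it was 1.02%, 1.55% and 1.05% in the Ssxb-high set, 3.82%, 5.01% and 3.00% in C cells and 0.622%, 1.37% and 1.65% in E cells. Among shallow cells the set was thus below C cells in each library, and below E cells in hairpin 2 only. Among cells of at least 25000 UMIs the share was 0.425% in the set and 0.340% in E cells. By library these were 0.396%, 0.447% and 0.404% in the set and 0.402%, 0.205% and 0.377% in E cells (6, 5 and 8 cells). The order of the set and E cells was thus not the same at both depths. Eif1b, a translation initiation factor, was at 47.4, 64.5 and 65.4 CPM, against 399, 262 and 318 CPM in C cells and 105, 125 and 123 CPM in E cells. Baz1a, a subunit of chromatin remodelling complexes, was at 29.8, 32.4 and 24.6 CPM against 59.3, 55.4 and 51.8 CPM in C cells.

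Ssxb-high cells fell into a shallow and a deep group. Of the 416 cells, 135 had under 15000 UMIs (median 9812), 244 had at least 25000 (median 46041) and 37 lay between, with bounds placed after the distribution was seen. The shallow cells were 29.5%, 30.3% and 36.3% of the set in the control, hairpin 1 and hairpin 2. C cells divided likewise, with 129 shallow and 254 deep of 424, whereas 230 of 271 E cells were shallow.

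**Figure D4:**
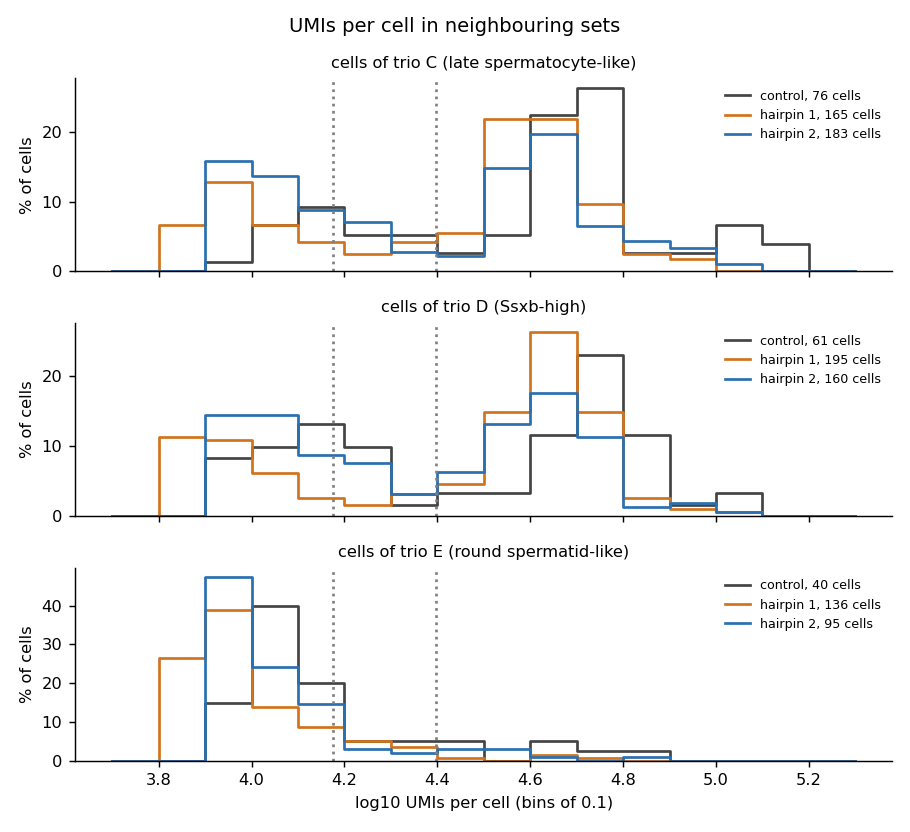
Distribution of UMIs per cell (log10, bins of 0.1) for the cells of trios C, D (Ssxb-high) and E, as percent of the cells of each library, with dotted lines at 15000 and 25000 UMIs. C and D have a peak on each side of the lines, and most E cells lie to the left.

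Shallow Ssxb-high cells carried more RNA of elongating spermatid genes and of mitochondria. Of 16 members of the elongating spermatid list, 8 were at least 2-fold higher in shallow than in deep cells and 0 lower, beside 6.03% higher and 0.541% lower of 3514 genes. The list summed to 64861, 80033 and 50666 CPM in shallow cells and 34205, 25257 and 23440 CPM in deep cells. Prm1 (protamine 1) was at 22761, 29561 and 18313 CPM in shallow cells and 10291, 7806 and 6826 CPM in deep cells. The mean mitochondrial share was 1.26% in shallow and 0.425% in deep cells. In the leukocyte-like cells of trio L the elongating spermatid list summed to 24116, 31316 and 21043 CPM. The part of RNA from other cells in these levels was not tested.

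The genes of the rule were present at both depths, which the choice of the cells fixes. Ssxb1 was at 132, 112 and 122 CPM in shallow and 91.3, 85.4 and 93.8 CPM in deep cells. Gm6588 was at 147, 121 and 105 CPM in shallow and 129, 136 and 122 CPM in deep cells. The X share was above that of C cells at both depths. Among deep cells it was 0.961%, 0.759% and 0.937% in the Ssxb-high set and 0.406%, 0.377% and 0.428% in C cells. Among shallow cells it was 1.22%, 1.02% and 1.18% against 0.737%, 0.648% and 0.628%, a smaller ratio in each library.

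Gm4665, the targeted RNA, was lower with both hairpins. It is annotated as antisense at chr9:115180404-115186058 on the minus strand. Among Ssxb-high cells its level was 68.0 (interval 57.9 to 79.3), 12.1 (9.56 to 15.05) and 20.8 CPM (16.9 to 25.3) in library order, so the hairpin levels were 5.63 and 3.27 times lower. Gm4665 was at 80.4, 39.8 and 42.9 CPM in shallow cells (18, 59 and 58 cells) and at 64.6, 9.47 and 14.8 CPM in deep cells. Hairpin levels of Gm4665 thus lay closer to the control in shallow cells. The leukocyte-like cells of trio L, which should lack it, held 57.9, 10.7 and 10.2 CPM. Their intervals, 35.3 to 89.4, 5.54 to 18.7 and 6.92 to 14.4 CPM, overlapped those of Ssxb-high cells in the control and hairpin 1 but not in hairpin 2.

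A Gm4665 UMI was present in 82.0%, 30.8% and 43.1% of Ssxb-high cells (median depths 41143, 36840 and 27774 UMIs) and in 65.0%, 9.57% and 14.9% of leukocyte-like cells (14002, 9700 and 13294 UMIs). After thinning every cell to 10000 UMIs, which left out 5, 43 and 23 shallower Ssxb-high cells, the shares were 44.6%, 12.5% and 16.1% against 45.0%, 6.98% and 13.1%. The thinned shares of leukocyte-like cells rest on 20, 43 and 145 cells. In the control the thinned share was close to that of the leukocyte-like cells. With both hairpins it was higher than in the leukocyte-like cells, but the thinned shares have no counting interval. In hairpin 2 the CPM intervals did not overlap. The part of background in these levels was not tested.

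Few genes differed from the control by 2-fold in Ssxb-high cells. Of 5153 genes compared, hairpin 1 had 19 at least 2-fold higher (0.369%) and 30 lower (0.582%), and hairpin 2 had 36 higher (0.699%) and 36 lower (0.699%). The median log2 difference over all genes was 0.01 with hairpin 1 and -0.01 with hairpin 2. Both hairpins are set against the same control library, so a gene that is unusual in that library appears with both. The numbers were larger after thinning every cell to 10000 UMIs, which also changed the set to 54, 143 and 126 cells: 62 higher and 60 lower with hairpin 1, and 97 and 68 with hairpin 2.

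Genes of meiosis and of early spermatids were within 2-fold of the control, as were nearly all genes (0.369% to 0.699% passed per direction), so the counts say nothing particular about these lists. With either hairpin, 0 of 19 division kinases and cyclins passed 2-fold in a direction (median log2 differences -0.02 and -0.03), and the same held for 33 kinetochore and spindle genes (0.05 and -0.08). It held as well for 10 synapsis genes (0.05 and -0.01), 25 early round spermatid genes (-0.05 and -0.06) and 16 regulators of the spermatid programme (0.05 and -0.10). Crem, at 637, 633 and 637 CPM, and Spaca1, at 505, 478 and 486 CPM, show how close the libraries lay. The pachytene, XY body, apoptosis, stress and piRNA lists, the autosomal copies of X genes and the Y-linked list also had 0 compared members past 2-fold with either hairpin. Of 14 genes of the X-linked families, 1 was lower with hairpin 1 and 0 differed by 2-fold with hairpin 2. Of the 3 X-linked parents of autosomal copies, 2 (Utp14a and Rpl10) were higher with hairpin 2 and 0 with hairpin 1, and that of Rpl10 rests on 3 cells. Without them Rpl10 was at 24.99 CPM against 13.01 CPM in the control, under 2-fold.

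Elongating spermatid genes were mostly within 2-fold of the control. Of 17 members, hairpin 1 had 1 at least 2-fold lower and hairpin 2 had 0, with medians of -0.35 and -0.38. Prm2 (protamine 2) was at 9171, 5876 and 5727 CPM and Tnp2 (transition protein 2) at 3465, 2597 and 2101 CPM. The list summed to 38505, 29730 and 27922 CPM in Ssxb-high cells and to 24116, 31316 and 21043 CPM in leukocyte-like cells, with another order. The control was highest in C cells (30846, 22441 and 22049 CPM) but lowest in E cells (69062, 96747 and 92637 CPM). Within the set the control was highest among deep cells, whereas among shallow cells hairpin 1 was highest, as given above. The part of RNA from other cells in this difference was not tested.

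Several genes were higher with both hairpins, and the genes described here are among the 10 ranked first. Rbx1, a subunit of cullin ubiquitin ligases, was at 19.7, 44.0 and 49.6 CPM in Ssxb-high cells and at 83.8, 90.6 and 92.4 CPM in C cells. After that thinning, the log2 difference of Rbx1 with hairpin 1 was 0.20 instead of 1.12. Whether the difference of Rbx1 between libraries depends on the set of cells was not tested.

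Atp6v1e2, a proton pump gene enriched in testis, was at 25.6, 154 and 168 CPM, close to its 27.2, 147 and 167 CPM in E cells. 1700023F02Rik was at 15.1, 73.8 and 71.7 CPM and Galntl6, a glycosyltransferase-like gene, at 6.71, 26.3 and 50.5 CPM. Jchain, the joining chain of antibodies, was at 2.10, 11.6 and 57.2 CPM in Ssxb-high cells and at 512, 17454 and 12022 CPM in the leukocyte-like cells. The 11 leukocyte markers, given above for Ssxb-high cells, summed to 26440, 39030 and 27228 CPM in leukocyte-like cells, and 0 of them were at 0 in all 3 libraries. Jchain was the only one abundant enough to be compared. Their part in the results was not tested.

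The genes lower with both hairpins were led by transcripts almost absent from both hairpin libraries. The noncoding RNA 1700104B16Rik was at 63.8 CPM in the control and 1.53 and 1.47 CPM with the hairpins, and 4933433G15Rik at 57.1, 3.67 and 1.89 CPM. C cells held 82.2, 1.69 and 1.05 CPM of the first and 68.7, 4.70 and 4.01 CPM of the other, so the pattern was not limited to Ssxb-high cells. Marc2, a molybdenum-dependent reductase, was at 164, 29.8 and 30.1 CPM. Tmem242, a transmembrane protein gene, was at 99.0, 34.8 and 38.3 CPM. Dynlt1a, a dynein light chain, was at 80.6, 6.72 and 6.52 CPM, but its transcript end is 99.0% identical to Dynlt1f, so reads of these copies cannot be told apart.

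The hairpin libraries also differed from each other, in genes chosen here after their values were seen. Psma8, a testis-specific proteasome subunit, was at 61.3, 125 and 27.5 CPM in library order. Utp14a, an X-linked ribosome assembly factor, was at 35.7, 18.9 and 81.4 CPM, in the same order as in C cells (9.58, 5.64 and 27.4 CPM). Rpl10, an X-linked ribosomal protein gene with near-identical copies, was at 13.01, 14.8 and 42.9 CPM.

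In the hairpin 2 library, 3 Ssxb-high cells stood apart. Ribosomal protein genes gave 19.5% to 24.7% of their UMIs, while the highest other Ssxb-high cell had 8.004%. They carried 86 of the 204 Rpl10 UMIs of the set in that library, and they are the cells that held the Mgp UMIs. Their z-scores for trio D were low for the set, from 0.322 to 0.898.

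**Figure D5:**
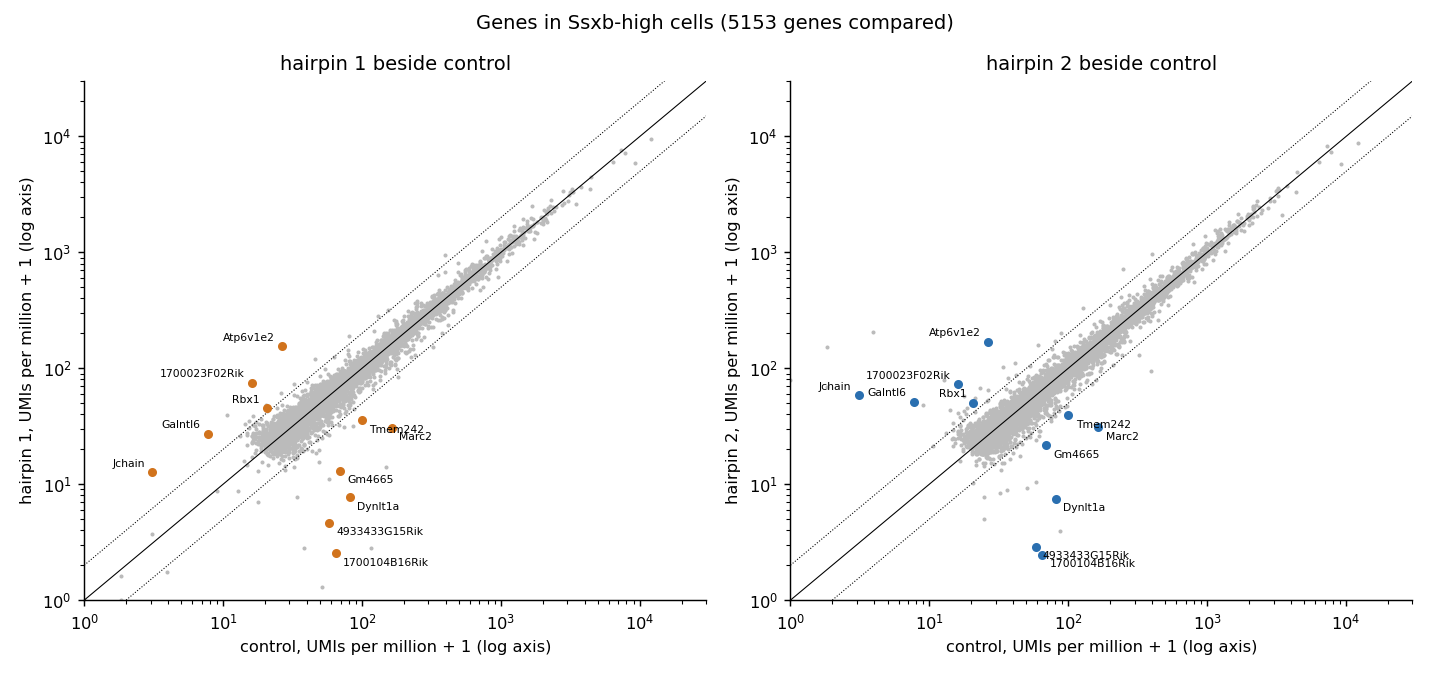
CPM plus 1 of the 5153 genes compared in Ssxb-high cells, control on the x axis and a hairpin on the y axis (log axes), with the line of equality and dotted lines at 2-fold. Most genes lie within the dotted lines, and the labelled points are genes named in the text, among them Atp6v1e2 at 25.6, 154 and 168 CPM.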

How the data were processed

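The values deposited by the authors are on a natural log scale: each cell was scaled to 10000, 1 was added and the ln taken. The submitters' processing notes name mm10, Cell Ranger 1.3.1 and Seurat 2.0.0. Not given in the sources used here are annotation, strand setting, cell filter thresholds and any removal of doublets. Raw counts had been foreseen in the design. Undoing the log gave 100.0% of 20140203 non-zero values as whole UMIs within 0.01. Library columns of the hairpins were matched by the last digit of their names alone, and if that match were wrong, hairpins 1 and 2 would change places.

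Sums of UMIs per set of cells and library were divided by their total (CPM, counts per 1000000 UMIs). A gene was compared between libraries with a mean of at least 20 CPM and at least 30 UMIs, and between sets with at least 50 CPM in either, with a pseudocount of 1 CPM. Log2 differences understate those of low genes. Called means at least 2-fold. With 1 library per condition no test was possible. On simulated libraries without replicate noise, 100.0% of genes changed 4-fold and 0% of unchanged genes were called for hairpin 1 against the control (5110 genes) and for hairpin 2 (5116 genes).

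Named genes were the genes of the rule and Gm4665, the 15 ranked highest above and the 10 ranked lowest below both C and E cells, the first 10 per direction with both hairpins, and up to 6 members per list by level. Other genes named, such as Bub1b, Cdk1, Sycp3, Acrv1, Spaca1, the X-linked genes and the other Ssx genes, were added after their values were seen, and some genes under the rule are not reported here. The members, lists and rules were chosen with earlier results of these data known. The lists covered division kinases, kinetochore and spindle, synapsis, pachytene, early round spermatids, spermatid regulators, elongating spermatids, X-linked and Y-linked genes, autosomal copies of X genes and their parents, the XY body, apoptosis, stress and piRNA genes, and markers of 11 cell types.

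Positions came from GENCODE vM21 (95.7% of symbols found). Upstream windows came from RefSeq, and near-identical transcript ends (at least 95% over at least 200 of the last 500 bases) from blastn 2.17.0. Other tools were Python 3.11.15, numpy 2.4.6, scipy 1.17.1, pandas 2.3.3, biopython 1.88 and matplotlib 3.10.9.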

Additional observations from a re-analysis of the deposited data

How the results depend on the processing

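No paired analysis was possible because each condition has 1 library and the result comes from no test. The alternatives changed the rule (a lead of at least 0.5 over the next trio, each gene of trio D left out, cells thinned to 10000 UMIs, z-scores within each library), the scaling or the filter, and 2 were chosen after seeing the data: leaving out cells under 15000 UMIs, or the 3 cells rich in ribosomal protein RNA. No difference of at least 2-fold changed direction, but some smaller ones did, among them the median over all genes and medians of several lists. Of 174 values of cell numbers, gene counts, Gm4665 and X share, 150 stayed within the bounds set for them and 24 moved.

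Without cells under 15000 UMIs hairpin 2 kept 102 cells. Genes at least 2-fold higher and lower numbered 62 and 60 (hairpin 1) and 97 and 68 (hairpin 2) after thinning, 8 and 10 and 13 and 10 at a mean of at least 50 CPM, 204 and 166 and 327 and 145 with no filter on CPM, and 3 and 4 and 6 and 5 at a difference of mean ln values of at least 0.5. A lead of at least 0.5 gave 56 lower genes with hairpin 1, and a pseudocount of 5 CPM 22 lower genes with hairpin 2. The cause was not tested. The log2 difference of Gm4665 was -1.92 with hairpin 1 when each cell was weighted equally, and -1.24 with hairpin 2 for trio D without Gm6588. After thinning, the X share was 2.04 and 1.82 times that of C cells in the control and hairpin 2, and 0.689 times that of E cells with hairpin 1. The median over all genes stayed between -0.04 and 0.02. Among genes named by rank, Rbx1 with hairpin 1 was at 0.20 after thinning. The control set holds 61 cells, which limits the precision of every comparison with it.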
